A study of Homo sapiens with 8 samples.

Results

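Laminins are cross-shaped proteins of the basement membrane, the sheet of matrix under an epithelium, and each is a trimer of an α, a β and a γ chain. Integrins are cell surface receptors made of an α and a β subunit, and several of them bind laminin and tie it to the cytoskeleton. The genes described here are a family of 10 named laminin and integrin genes: the laminin chains LAMA3, LAMA5, LAMB1, LAMB2 and LAMC1, and the integrin subunits ITGA2, ITGA3, ITGA6, ITGB1 and ITGB4. Of the 10, 9 had a probe set carrying exactly 1 gene symbol and were measured, out of 18417 genes so measured in all. LAMA3 had no such probe set, so its signal was not analysed. Each of the 9 had 1 such probe set. The family was picked with the higher LAMC1 signal after siRNA in each medium already known, so the siRNA differences of the family are given as description, and no p-value is given for them.

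The RNA came from T47D, a breast cancer cell line of luminal type that carries the estrogen receptor, on 8 Affymetrix Human Gene 1.0 ST arrays with 2 arrays in each of 4 groups. The groups were a mixture of 3 siRNAs against 17β-HSD1 with 1 nM estradiol (E2), the same siRNAs with ethanol vehicle, control siRNA (a scrambled sequence) with 1 nM E2, and control siRNA with vehicle. All cells were steroid-deprived for 2 days, transfected with 200 nM siRNA, and changed after 48 h to charcoal-treated medium with E2 or vehicle for 2 days. The medium held bovine insulin, and the 2 replicates came from independent cultures of this single line. 17β-HSD1, encoded by HSD17B1, reduces estrone to estradiol.

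Signals are log2 values per probe set, and differences between them are log2 differences. A difference of 1 is a doubling of signal. Apart from the mean signals of the marker lists below, levels of different genes are not set against each other, because their probes differ. Where a gene is subtracted from another on the same array, the result is compared only between groups of arrays. HSD17B1 lay between 8.32 and 8.41 on the arrays with 17β-HSD1 siRNA and between 8.56 and 9.35 on the arrays with control siRNA. Its averaged difference was -0.56 ± 0.16 (SE, 4 arrays against 4), with a limma adjusted p of 0.221. One array differed from the rest, replicate 1 of the group given vehicle after 17β-HSD1 siRNA, at 40.1 on the first principal component against -19.5 to 6.63 for the others. The mean signal of 10 luminal markers lay between 11.33 and 11.66 on all arrays. Lists of 8 to 10 measured markers of basal, fibroblast, endothelial and immune cells had mean signals between 6.26 and 6.81, or up to 7.56 for the basal list. On this outlying array these 4 lists were at their highest, at 7.56, 6.73, 6.56 and 6.81, and the part of this in the results below was not tested. The siRNA differences of the members in vehicle are therefore also given without it.

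The γ1 chain encoded by LAMC1 is a shared building block, since it pairs with several α chains and with the β1 or β2 chain, while the α6 subunit encoded by ITGA6 is a laminin receptor subunit that pairs with β1 or β4. The 250 bases before the RefSeq start of each of these genes are printed here because LAMC1 was the member that differed most with siRNA and ITGA6 the one that differed most with E2. Both are on the plus strand of GRCh38.p14, 5′ to 3′, at chr1:183023170-183023419 for LAMC1 and chr2:172427086-172427335 for the upstream of 2 listed ITGA6 starts. Capitals mark matches, on either strand, to any of 6 motifs. The first, the GC box, is GGGCGG. The estrogen response element half-site is AGGTCA. The palindromic estrogen response element is GGTCA followed after any 3 bases by its reverse complement, and it can overlap a half-site. The interferon-stimulated response element is GAAA repeated after any 2 bases. The last ones were the TATA box, with the letters TATAAA, and the CCAAT box.
LAMC1: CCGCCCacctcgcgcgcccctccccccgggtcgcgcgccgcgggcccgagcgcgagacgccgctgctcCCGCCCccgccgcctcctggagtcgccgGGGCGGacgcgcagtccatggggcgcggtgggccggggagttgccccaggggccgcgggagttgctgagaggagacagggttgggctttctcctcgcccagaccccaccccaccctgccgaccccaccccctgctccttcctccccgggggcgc
ITGA6: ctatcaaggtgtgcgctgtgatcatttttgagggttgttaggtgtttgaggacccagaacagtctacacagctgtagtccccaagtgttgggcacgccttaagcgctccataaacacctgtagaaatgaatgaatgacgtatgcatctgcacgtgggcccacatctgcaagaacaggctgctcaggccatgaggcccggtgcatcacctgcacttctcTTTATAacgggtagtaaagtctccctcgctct

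The LAMC1 window was 79.6% G or C, where the median of 35116 RefSeq windows was 58.0%, and its 3 capital runs are GC boxes. A GC box was found in 42.6% of all windows of this length. The upstream ITGA6 window was 50.8% G or C and held 1 TATA box match, on the minus strand, 32 bases before the start. TATA box letters were found in 10.7% of windows. The window of the other ITGA6 start was 71.6% G or C with 3 GC boxes. In 10 windows of the 8 family genes listed (LAMA3 among them), no match to the half-site, the palindrome, the interferon element or CCAAT was found, against 12.1%, 0.0399%, 3.02% and 32.0% of all windows. This says only that those letters were absent from these 250 bases.

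LAMC1 was higher on every array with 17β-HSD1 siRNA than on every array with control siRNA. Its signal was 10.02 and 10.02 with 17β-HSD1 siRNA and E2, and 10.20 and 10.04 with 17β-HSD1 siRNA and vehicle. With control siRNA it was 8.84 and 9.17 in E2, and 9.46 and 9.20 in vehicle. The 4 siRNA arrays spanned less than the 4 control arrays, and the highest control array stayed below the lowest siRNA array. The difference was 1.01 ± 0.17 in E2, 2.02-fold, and 0.79 ± 0.17 in vehicle, 1.73-fold (SE of the fit, 2 arrays against 2). Averaged over the media it was 0.90 ± 0.12, 1.87-fold, which ranked 59 from the top among 18417 genes. As RNA from whole cultures was measured, more cells carrying LAMC1 RNA and more LAMC1 RNA per cell cannot be told apart.

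Within replicate numbers, the LAMC1 difference was 1.18 and 0.84 in E2 and 0.74 and 0.84 in vehicle, for replicates 1 and 2. As every siRNA array lay above every control array, each of these had to be above 0, and only their sizes add information. Without the outlying array the difference in vehicle was 0.71. In E2 it was 0.85 or 1.18 without control siRNA, E2 replicate 1 or 2, the 2 arrays whose signals lay furthest apart for this gene. The gap between the media, 0.22 ± 0.23, was no larger than its error.

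**Figure D1:**
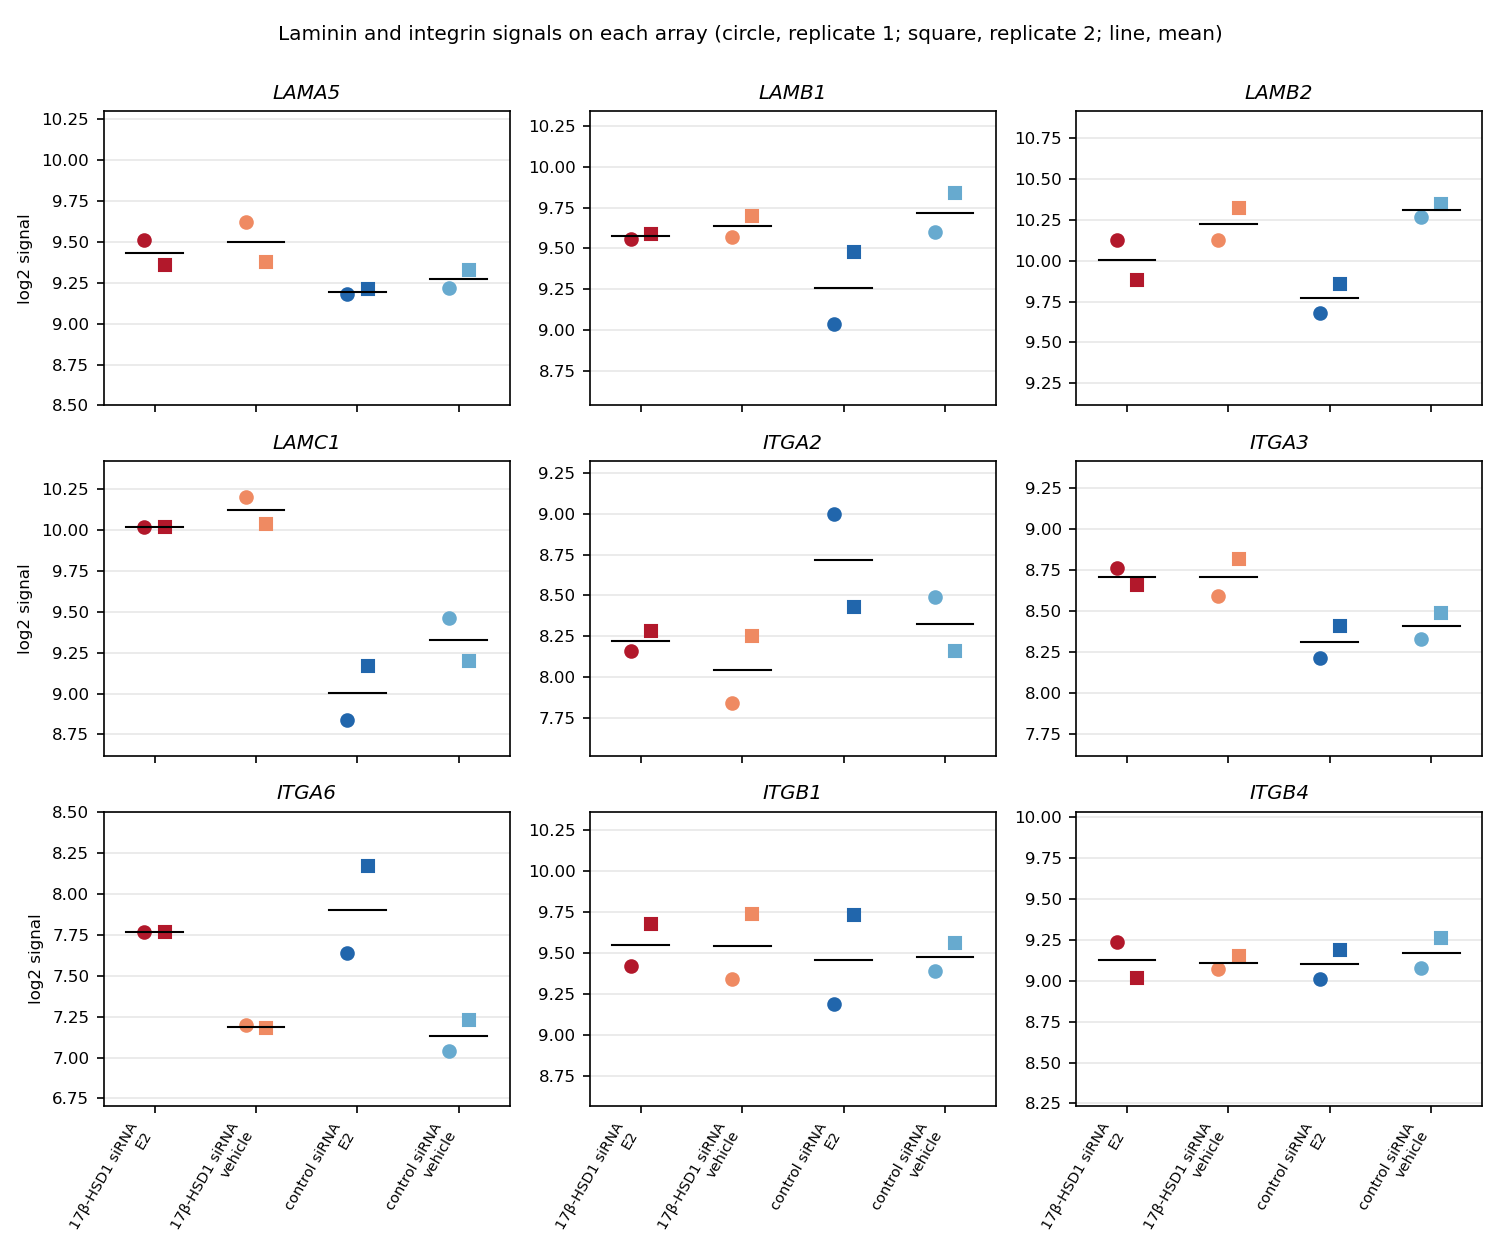
Log2 signal (vertical axis, each panel centred on its own gene and spanning the same range) of the 9 measured laminin and integrin genes in the 4 groups of 2 arrays. Points are arrays and lines are group means. LAMC1 separates by siRNA, with all 4 siRNA arrays at 10.02 or above and all 4 control arrays at 9.46 or below, and ITGA6 separates by E2.

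The other laminin chains differed less with siRNA than LAMC1 did. LAMA5, the α5 chain of laminins in many adult epithelia, had 9.51 and 9.36 with 17β-HSD1 siRNA and E2, 9.62 and 9.38 with 17β-HSD1 siRNA and vehicle, 9.18 and 9.21 with control siRNA and E2, and 9.22 and 9.33 with control siRNA and vehicle. All 4 siRNA arrays were above all 4 controls, but the gap between 9.36 and 9.33 was narrow. Its averaged difference was 0.23 ± 0.11, or 0.17 without the outlying array, and in vehicle it was 0.22 with that array and 0.10 without it.

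LAMB1 and LAMB2 encode the β1 and β2 chains, the alternative partners of γ1 in a trimer. For LAMB1 the siRNA difference was 0.31 ± 0.17 in E2 and -0.08 ± 0.17 in vehicle. The E2 value was 0.10 when control siRNA, E2 replicate 1 was dropped and 0.53 when replicate 2 was, so its size depended on which control array was kept. The vehicle value was -0.02 without the outlying array and 0.04 without control siRNA, vehicle replicate 2. For LAMB2 the difference was 0.23 ± 0.16 in E2 and -0.08 ± 0.16 in vehicle. Its E2 value was 0.11 or 0.36 without replicate 1 or 2 of 17β-HSD1 siRNA with E2, and its vehicle value was 0.02 without the outlying array. Neither vehicle value thus had a settled sign. In E2 the siRNA arrays of both genes lay above the control arrays, an order that 18.1% of all probe sets showed with 2 arrays against 2, and in vehicle the groups overlapped.

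The siRNA differences of the integrin subunits lay on both sides of 0. ITGA3, whose α3 subunit pairs with β1 to bind laminin, had 8.76 and 8.66 with 17β-HSD1 siRNA and E2 and 8.59 and 8.82 with 17β-HSD1 siRNA and vehicle. With control siRNA it had 8.21 and 8.41 in E2 and 8.33 and 8.49 in vehicle. All 4 siRNA arrays again lay above all 4 controls, by an averaged 0.35 ± 0.11, 1.27-fold. Its difference in vehicle was 0.30, or 0.41 without the outlying array. ITGA2, whose α2 subunit pairs with β1 as a collagen receptor that also binds laminin, differed by -0.49 ± 0.22 in E2 and -0.28 ± 0.22 in vehicle. The vehicle value was -0.08 without the outlying array and -0.12 without control siRNA, vehicle replicate 1, so its size rested on single arrays.

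ITGA2 also varied most between replicates. Its signal was 8.16 and 8.28 with 17β-HSD1 siRNA and E2, 7.84 and 8.25 with 17β-HSD1 siRNA and vehicle, 9.00 and 8.43 with control siRNA and E2, and 8.49 and 8.16 with control siRNA and vehicle. The siRNA arrays lay below the control arrays in E2, as for 20% of all probe sets, and overlapped them in vehicle, and the E2 difference was -0.21 without control siRNA, E2 replicate 1. The averaged value of -0.39 ± 0.15 was -0.28 without the outlying array. ITGB1, the β subunit shared by many integrins, differed by 0.09 ± 0.21 in E2 and 0.06 ± 0.21 in vehicle. ITGB4, the β4 subunit found in hemidesmosomes, differed by 0.03 ± 0.15 and -0.06 ± 0.15, and ITGA6 by -0.14 ± 0.18 and 0.05 ± 0.18. For these last 3 the siRNA and control arrays overlapped in both media. Without the outlying array their vehicle values were 0.26 for ITGB1, -0.02 for ITGB4 and 0.04 for ITGA6.

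In the averaged siRNA contrast 0.457% of 21214 probe sets had an adjusted p below 0.05, and of the 9 members 1 was among them, LAMC1, the gene whose difference was known when the family was picked. LAMC1, LAMA5 and ITGA3 had siRNA arrays entirely above the controls, where 2.24% of probe sets did. As the family was picked on this contrast, these counts are description and test nothing about the members. The median of the 9 was 0.08, and the median of all probe sets was 0.01. On dropping either array of 17β-HSD1 siRNA with E2, LAMC1 was no longer called. Both of these arrays read 10.02, so its difference in E2, 1.01, could not change on dropping either. LGALS3BP, in a list below, lost its call on the same omissions.

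**Figure D2:**
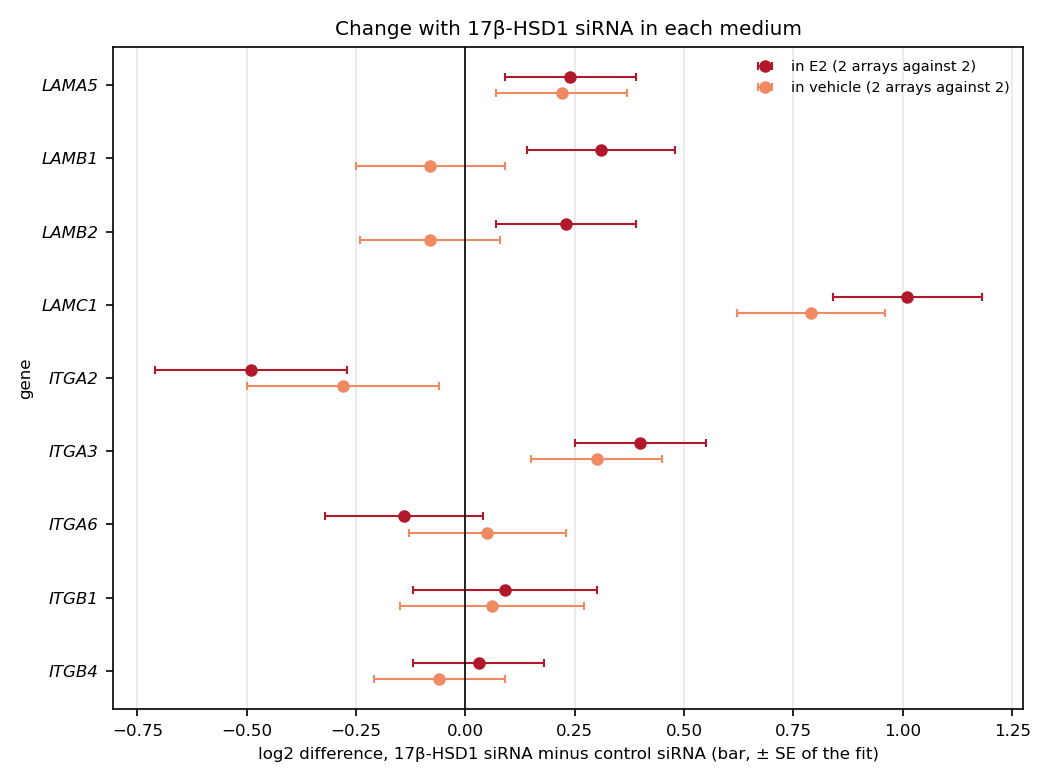
Log2 difference, 17β-HSD1 siRNA minus control siRNA (horizontal axis), for each measured gene in E2 and in vehicle, with bars of ± 1 SE from the fit over all arrays. LAMC1 stands at 1.01 and 0.79, the other genes between -0.49 and 0.40.

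The second question was what E2 did to the same genes. Averaged over the siRNAs, ITGA6 rose with E2, by 0.67 ± 0.13, 1.59-fold (limma adjusted p = 0.0234, 4 arrays against 4), and no other member passed. The members were chosen with earlier results of these data known, and this p is to be read with that limit. Across all probe sets 1.55% passed, 1.32% as higher. ITGA6 had 7.77 and 7.77 with E2 against 7.20 and 7.18 with vehicle after 17β-HSD1 siRNA. After control siRNA it had 7.64 and 8.17 with E2 against 7.04 and 7.23 with vehicle. All 4 E2 arrays were above all 4 vehicle arrays, where 2.94% of probe sets showed that order.

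For each siRNA alone the ITGA6 difference kept its direction, at 0.58 ± 0.18 after 17β-HSD1 siRNA (limma adjusted p = 0.514) and 0.77 ± 0.18 after control siRNA (limma adjusted p = 0.153). Within replicate numbers 1 and 2 it was 0.56 and 0.59 after 17β-HSD1 siRNA, and 0.60 and 0.93 after control siRNA. The averaged call depended on which array was left out and on which probe sets were included. It was lost when any 1 of 6 arrays was left out (limma adjusted p between 0.0637 and 0.119, with differences of 0.54 to 0.68), including the outlying array (0.68, adjusted p = 0.0647). It held without control siRNA, vehicle replicate 2 or control siRNA, E2 replicate 1 (adjusted p of 0.0414 and 0.00663), and was lost when probe sets with no symbol were added (adjusted p = 0.113).

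The α6 subunit reaches the surface only with a β partner, and its β partners were close to 0 with E2. ITGB1 had 9.42 and 9.68 with E2 against 9.34 and 9.74 with vehicle after 17β-HSD1 siRNA, and 9.19 and 9.73 against 9.39 and 9.56 after control siRNA. ITGB4 lay between 9.01 and 9.24 with E2 and between 9.07 and 9.26 with vehicle. The E2 and vehicle arrays of both overlapped widely.

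The averaged E2 difference was 0.00 ± 0.15 for ITGB1 and -0.03 ± 0.11 for ITGB4 (limma adjusted p of 1 and 0.996). Taken within each array, ITGA6 minus ITGB1 was higher with E2 than with vehicle by 0.67, and ITGA6 minus ITGB4 by 0.70. For each of these the 4 E2 arrays lay above the 4 vehicle arrays. ITGA6 was singled out after its values were seen, so these differences are description.

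The 4 laminin chains of the family all had averaged E2 differences below 0, and none passed. The median of all probe sets was -0.02, and 5 of the 6 other laminin chains measured were above 0. LAMA5 was at -0.01 without the outlying array. LAMB2 was the furthest, at -0.38 ± 0.11, 0.768-fold (limma adjusted p = 0.174). Its signal was 10.13 and 9.88 with E2 against 10.13 and 10.32 with vehicle after 17β-HSD1 siRNA, and 9.68 and 9.86 against 10.27 and 10.35 after control siRNA. After control siRNA the E2 arrays were below the vehicle arrays, by an E2 difference of -0.54 ± 0.16 (limma adjusted p = 0.323). In another comparison of 2 arrays against 2, siRNA against control siRNA in E2, 20% of probe sets were lower without overlap. The share for the E2 comparison after control siRNA is not given here. After 17β-HSD1 siRNA replicate 1 did not differ.

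LAMB1 had 9.56 and 9.59 with E2 against 9.57 and 9.70 with vehicle after 17β-HSD1 siRNA, and 9.04 and 9.48 against 9.60 and 9.84 after control siRNA. It averaged -0.26 ± 0.12 (limma adjusted p = 0.594). LAMC1 averaged -0.21 ± 0.12 and LAMA5 -0.07 ± 0.11 (limma adjusted p of 0.733 and 0.981). For LAMC1 the value after control siRNA was -0.62 in replicate 1 and -0.03 in replicate 2, so it rested mainly on replicate 1. ITGA2 averaged 0.28 ± 0.15 and ITGA3 -0.05 ± 0.11, with limma adjusted p of 0.716 and 0.99. The median of the 9 members was -0.05, and that of all probe sets -0.02.

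With either siRNA alone no member passed in limma, with or without the replicate number as a block. After 17β-HSD1 siRNA 1 of the 9 had an unadjusted p below 0.05, ITGA6, and after control siRNA 3 did, ITGA6, LAMB2 and LAMB1, where 4.52% and 5.94% of all probe sets did. The shares of all probe sets that passed after adjustment were 0.269% and 0.0848%, and with the block 0.523% and 0.599%. The interaction test, the E2 difference after 17β-HSD1 siRNA minus that after control siRNA, called no member and 0% of all probe sets. At an unadjusted p below 0.05 in limma there were 0 of 9 members and 140 probe sets, 0.66% of all. With so low a share, 0 of 9 says little about the members. The values furthest from 0 were 0.40 ± 0.25 for LAMB1 and 0.32 ± 0.22 for LAMB2 (limma adjusted p of 1 for both). These intervals are wide, so the absence of a call does not show that the responses were alike.

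**Figure D3:**
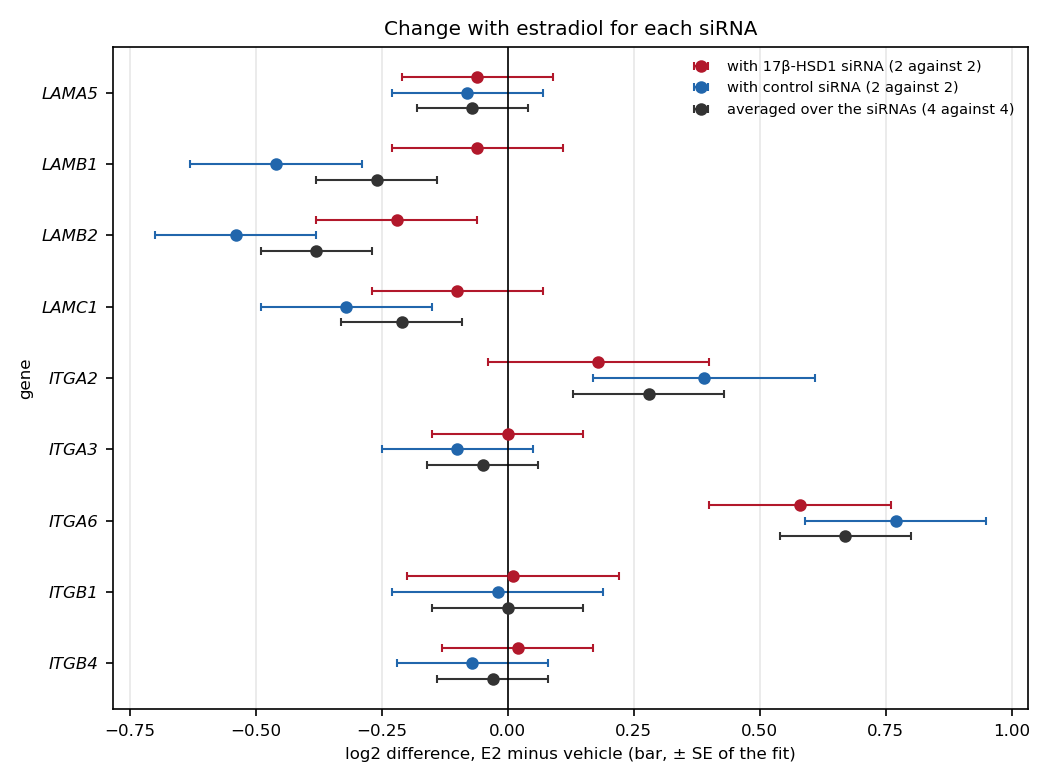
Log2 difference, E2 minus vehicle (horizontal axis), for each measured gene after 17β-HSD1 siRNA, after control siRNA and averaged over both, with bars of ± 1 SE from the fit. ITGA6 stands at 0.58, 0.77 and 0.67, and the 4 laminin chains lie below 0 in all 3 readings. The medians of all probe sets also lie below 0, at -0.03, -0.01 and -0.02. LAMA5 and LAMB1, both at -0.06 after 17β-HSD1 siRNA, changed sign there under some alternatives.

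The remaining laminin chains gave no call. Of 7 listed 6 were measured, and their averaged siRNA differences ran from -0.04 to 0.25 with a median of 0.02. The largest was 0.25 ± 0.11 for LAMB4 (limma adjusted p = 0.497). LAMC3, the γ3 chain, differed by 0.03 ± 0.11, and LAMB3, the β3 chain of the laminin that anchors hemidesmosomes, by 0.03 ± 0.15. Their E2 differences ran from -0.13 to 0.04.

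Of the 20 other integrin subunits measured among 21 listed, 0 passed in either averaged limma contrast, though 3 had an unadjusted p below 0.05 in each. Of all probe sets 9.44% had one for siRNA and 8.89% for E2, shares that also apply to the lists below. ITGAV, the αv subunit of receptors for vitronectin and fibronectin, differed by -0.45 ± 0.12 with siRNA and -0.32 ± 0.12 with E2 (limma adjusted p of 0.159 and 0.361). ITGB8, the β8 partner of αv that takes part in TGF-β activation, differed by -0.54 ± 0.12 with E2 (limma adjusted p = 0.0595). With the replicate number as a block ITGB8 passed (adjusted p = 0.0278), and it also passed without the outlying array. ITGAV passed for siRNA only when 17β-HSD1 siRNA, vehicle replicate 2 was left out.

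Among 27 measured of 31 listed basement membrane proteins and laminin or integrin partners, 1 rose with siRNA and none passed with E2 (0 in limma also with the block). At an unadjusted p below 0.05 there were 5 for siRNA and 3 for E2. The gene that rose was LGALS3BP, a secreted glycoprotein that binds integrins and matrix proteins, by 1.13 ± 0.14, 2.19-fold (limma adjusted p = 0.0104). The list was drawn up with earlier results of these data known, so the LGALS3BP call is description. Its call was lost without either 17β-HSD1 siRNA, E2 array. CD82, a tetraspanin that associates with integrins, differed by 0.47 ± 0.13 and DST, a hemidesmosome plakin, by 0.36 ± 0.10 (limma adjusted p of 0.171 and 0.204). With E2, BCAM, a receptor for laminin α5, differed by -0.44 ± 0.12 and DST by -0.40 ± 0.10 (limma adjusted p of 0.134 and 0.104). The list's medians were 0.07 with siRNA and -0.09 with E2.

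Of 32 measured among 35 listed genes that link integrins to actin or signal from them, 0 passed in either averaged limma contrast, with 4 and 5 at an unadjusted p below 0.05 for siRNA and E2. TNS3, which encodes the adaptor tensin 3, differed most with siRNA, by 0.56 ± 0.11 (limma adjusted p = 0.0675). It passed with the replicate number as a block (adjusted p = 0.0403) and without 17β-HSD1 siRNA, vehicle replicate 2. With E2 it differed by -0.34 ± 0.11 (limma adjusted p = 0.285). FERMT1, the kindlin of epithelial cells, differed by -0.43 ± 0.19 with siRNA, and ITGB1BP1, which binds the β1 tail, by 0.36 ± 0.13 with E2 (limma adjusted p of 0.511 and 0.369). The list's medians were 0.02 and -0.02.

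**Figure D4:**
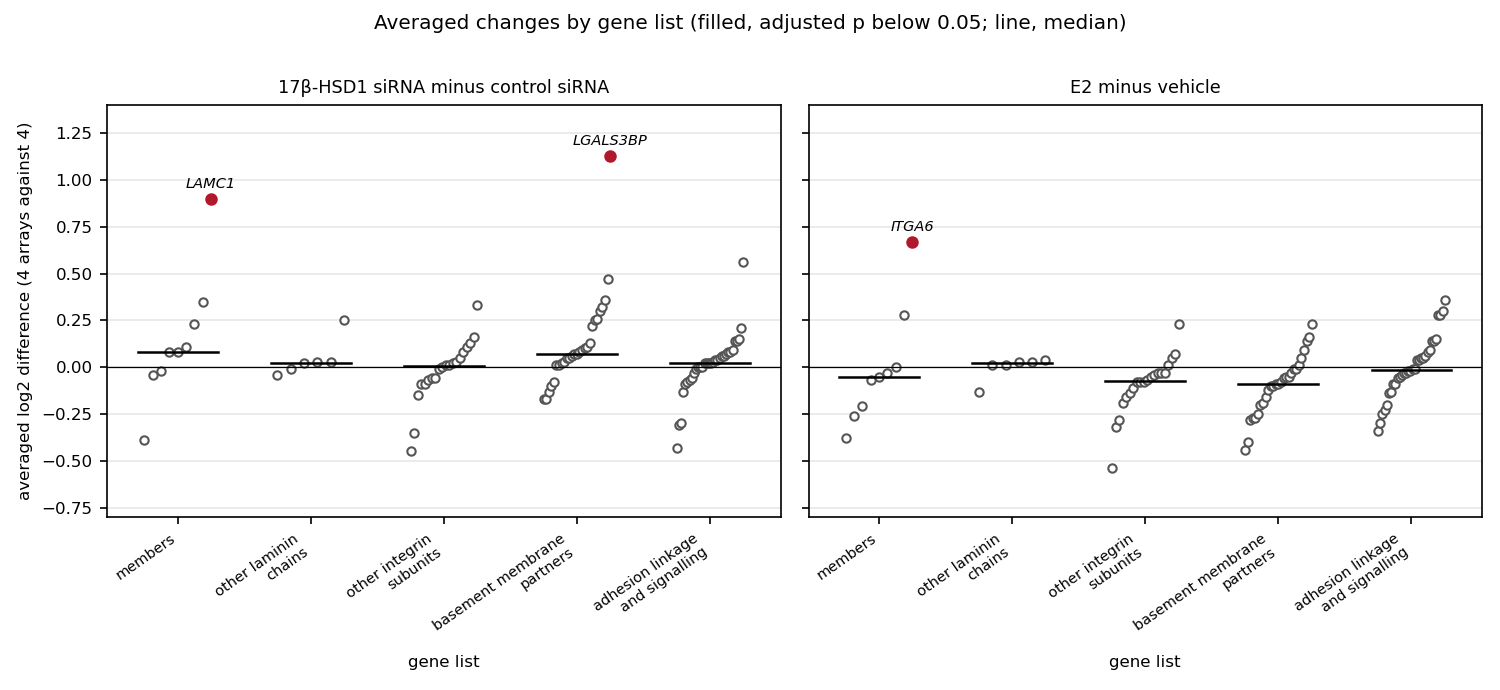
Averaged log2 differences (vertical axis) for siRNA (left) and E2 (right) in the 9 measured members and 4 lists of related genes. Each point is a gene, filled where the limma adjusted p was below 0.05, and lines are medians. LAMC1 at 0.90 and LGALS3BP at 1.13 are filled for siRNA, and ITGA6 at 0.67 for E2. The siRNA marks are description, since the family was picked with the LAMC1 difference known and the lists with earlier results known.

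Over the 8 arrays, the genes outside the family whose signals ran most like LAMC1 among 18408 were ZFYVE26, ANO3, FAM78A and UBP1, with Pearson coefficients of 0.95, 0.94, 0.94 and 0.94. These share all arrays with LAMC1, and the arrays fall into siRNA groups, so the values are description. UBP1, a transcription factor gene, differed by 0.82 ± 0.19 in E2 and 0.68 ± 0.19 in vehicle with siRNA, while ZFYVE26 differed by 0.33 ± 0.14 in each.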

How the data were processed

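Total RNA (integrity number above 8, per the labels) was labelled from 0.2 µg and 2.7 µg of cDNA hybridised. The deposited values, 33297 probe sets an array, are taken as log2 signals because they span 2.42 to 15.2. How the authors summarised and normalized them is not given in the sources used here. The number of arrays limits the precision.

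Names came from GEO's platform annotation, and gene identifiers were used to look for newer symbols: 19460 had 1 symbol, 1754 several and 12083 none. The 21214 with a symbol were fitted with limma 3.58.1 in R 4.3.3 over all 8 arrays (1 coefficient per group, eBayes, 4 residual degrees of freedom), with Benjamini-Hochberg adjustment over all 21214 and a threshold of 0.05. The probe set of highest mean stood for its gene. The procedure was tested on simulated data.

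The members and lists were chosen with earlier results of these data known. The rule named all members, HSD17B1, the 4 genes most like LAMC1, and list genes that were called or had the smallest p values. Promoters are from the RefSeq table of GRCh38.p14 (8 of 10 genes matched).

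The labels give 2 independent cultures and number the arrays of each group, and the number was taken as the culture, which the labels do not state. Deviations of same-numbered arrays correlated at 0.31 to 0.44 for 4 pairs of groups, but at 0.01 and -0.20 between control siRNA, vehicle and the 17β-HSD1 siRNA groups with E2 and vehicle. Alternatives were leaving dim probe sets out, adding unnamed ones, quantile normalization, median centring, a trended robust spread, the replicate block (also crossed), 1 row per gene, fits on the 4 arrays compared and leaving out each array.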

Additional observations from a re-analysis of the deposited data

How the results depend on the processing

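LAMC1 stayed higher after 17β-HSD1 siRNA under every alternative run, by 0.82 to 0.98 averaged, 0.66 to 0.91 in vehicle and 0.85 to 1.18 in E2, both ends of the last from leaving out a control siRNA, E2 array. ITGA6 stayed higher with E2 (0.54 to 0.80 averaged), but the count of members passing was 0 without dim probe sets, which removes ITGA6, 0 with all probe sets, and 0 to 1 on leaving out single arrays. The replicate block changed no call of a tested member (ITGA6 averaged E2 0.67, adjusted p = 0.0115), nor did the crossed block, which was chosen after seeing the data (adjusted p = 0.0244).

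Members near 0 changed sign, none of them called. After quantile normalization the E2 difference after 17β-HSD1 siRNA was -0.04 for ITGA3, -0.06 for ITGB1 and -0.04 for ITGB4, and the difference between responses was -0.05 for LAMA5 and -0.04 for ITGB1. Median centring gave 0.00 for averaged E2 in ITGB1. The cause was not tested. On leaving out single arrays, averaged E2 ran from -0.10 to 0.01 for ITGA3, -0.14 to 0.13 for ITGB1 and -0.08 to 0.03 for ITGB4. E2 after 17β-HSD1 siRNA ran from -0.18 to 0.06 for LAMA5, -0.13 to 0.01 for LAMB1, -0.03 to 0.39 for ITGA2, -0.11 to 0.12 for ITGA3, -0.19 to 0.21 for ITGB1 and -0.09 to 0.13 for ITGB4. E2 after control siRNA ran from -0.19 to 0.00 for ITGA3, -0.29 to 0.26 for ITGB1 and -0.17 to 0.02 for ITGB4. The difference between responses ran from -0.10 to 0.14 for LAMA5, -0.50 to 0.08 for ITGA2, -0.01 to 0.21 for ITGA3, -0.45 to 0.07 for ITGA6, -0.25 to 0.30 for ITGB1 and -0.02 to 0.20 for ITGB4. The siRNA differences that changed sign under an alternative ran from -0.21 to 0.04 for LAMB1 and -0.18 to 0.04 for LAMB2 in vehicle. For ITGA6 they ran from -0.17 to 0.09 averaged, -0.40 to 0.13 in E2 and -0.04 to 0.15 in vehicle. For ITGB1 they ran from -0.06 to 0.21, -0.18 to 0.36 and -0.13 to 0.26, and for ITGB4 from -0.07 to 0.04, -0.08 to 0.14 and -0.16 to 0.03, in the same order. With 2 arrays a group, differences of this size cannot be given a direction.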
